A study of Rattus norvegicus with 9 samples.

Results

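The 10 genes described here are the superoxide dismutases *Sod1*, *Sod2* and *Sod3*, catalase (*Cat*), the glutathione peroxidases *Gpx1*, *Gpx2*, *Gpx3* and *Gpx4*, the peroxiredoxin *Prdx1* and *Cyba*, which encodes the p22phox subunit of NADPH oxidases. They were taken as all probe sets whose only gene symbol in the platform annotation is that of a listed gene, which gave 18 probe sets of 8740 and 10 genes of 4736 with a symbol. The samples were posterior cricoarytenoid muscle, the muscle that opens the vocal folds, from rats of 3 ages, 6, 18 and 30 months. There were 3 arrays for every age, and tissue of 4 animals had been combined for each of them, so that the spread between arrays is one between pools. No strain, sex or treatment was given in the labels used here, and the ages differed in no other labelled way.

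Superoxide formed by the respiratory chain or by NADPH oxidases is turned into hydrogen peroxide by the superoxide dismutases. Catalase, the glutathione peroxidases and the peroxiredoxins then reduce hydrogen peroxide or lipid peroxides, the glutathione peroxidases at the expense of glutathione. Contracting skeletal muscle is a steady source of these oxidants, and the enzymes are spread over cytosol, mitochondria, peroxisomes and the extracellular space.

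None of these genes differed between ages past the test in this muscle, and most mean signals lay close together. The values furthest apart were those of *Cyba*, with a mean signal 2.29-fold lower at 18 than at 6 months and back near its first level at 30 months, and of *Gpx2*, 1.75-fold higher at 18 and 1.83-fold higher at 30 months. Of the 16 probe sets with enough signal to be tested, 0 passed an adjusted p of 0.05 in any comparison (limma with Benjamini-Hochberg adjustment over 5244 probe sets). The share of all probe sets that passed was 0.0763% for 18 against 6 months, 0.324% for 30 against 6 months, 0.0191% for 30 against 18 months, 0.0% for 18 months against the mean of the other ages and 0.267% for any difference among ages. With such shares, 0 calls among 16 is near the background. At an unadjusted p under 0.05 there were 3, 1, 1, 2 and 2 of the 16 in these comparisons, where all probe sets gave 8.62%, 12.9%, 3.20%, 3.99% and 8.92%. An exact permutation test of 3 arrays against 3 cannot go below p = 0.1, so none was run for single probe sets.

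Muscle identity and neighbouring tissue were checked with marker lists. All 11 of the 13 skeletal muscle markers with a probe set were detected strongly enough to be tested. Their summed signal was 179768 to 209037 at 6 months, 209666 to 255546 at 18 months and 219807 to 236146 at 30 months. All 11 were higher at 18 and at 30 than at 6 months (median log2 changes 0.23 and 0.28), and 0 passed the threshold. Of all probe sets, 42.3% and 41.2% were higher at these ages. The 7 fibroblast and matrix markers summed to 16810 to 21279, 12230 to 13303 and 13621 to 13826 at these ages. Those past the threshold, named after their values were seen, were the collagen genes *Col1a2* (adjusted p = 0.0168 at 18 and 0.0092 at 30 months by limma), *Col1a1* (0.0252 at 30 months) and *Col3a1* (0.0418 at 30 months), all lower than at 6 months. In bulk RNA, fewer cells of a type and less RNA per cell cannot be told apart. Median signals of the arrays were 104.2 to 124.8 signal units, and the 2% trimmed mean was 500.9 to 501.0 on every array, as deposited.

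**Figure D1:**
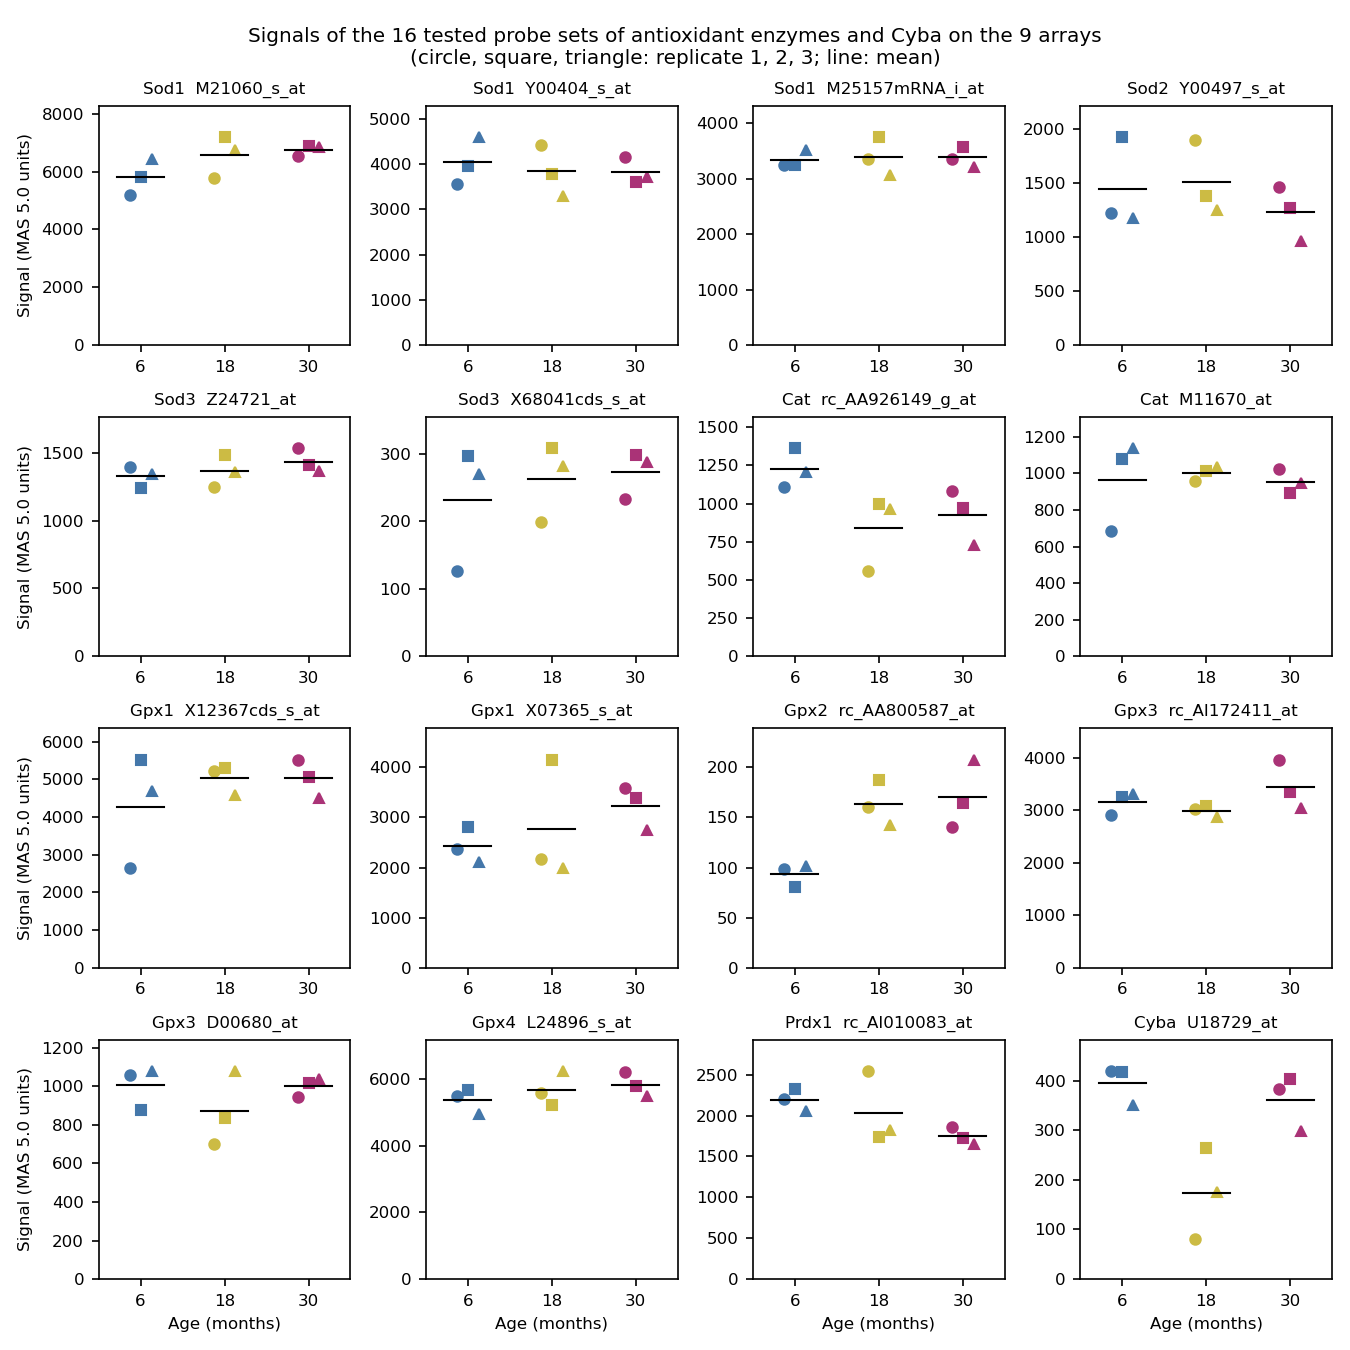
Signals (MAS 5.0 units, linear axis from 0) of the 16 tested probe sets at 6, 18 and 30 months, with 1 point per array, symbols for the replicate number and a line at the mean of 3 arrays. *Cyba* is low on all 3 arrays of 18 months, *Gpx2* is higher on all arrays of 18 and 30 months than at 6 months, and the ages overlap in most other panels.

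The cytosolic copper-zinc enzyme *Sod1* was read by 3 probe sets, none of which moved far with age. Probe set M25157mRNA_i_at read 3242, 3241 and 3515 at 6 months, 3351, 3751 and 3062 at 18 months, then 3361, 3568 and 3219 at 30 months. The arrays of the 3 ages overlapped throughout, and the log2 change from 6 to 30 months was 0.02 with a 95% interval of -0.24 to 0.28. Probe set M21060_s_at read 5182, 5831 and 6427 at 6 months, 5785, 7201 and 6749 at 18 months, then 6558, 6885 and 6857 at 30 months. All 3 arrays of 30 months lay above those of 6 months here, by a ratio of means of 1.16 (log2 change 0.22, SE 0.13, adjusted p = 0.476 by limma). The remaining probe set, Y00404_s_at, had means of 4038 ± 524, 3835 ± 563 and 3822 ± 297 (SD, n = 3 arrays per age), with a log2 change of -0.07 at 30 months (95% interval -0.40 to 0.25). The estimates of the other probe sets, 0.02 and -0.07, did not show the small excess of M21060_s_at, but their intervals include its 0.22.

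*Sod2*, the manganese enzyme of the mitochondrial matrix, varied more between arrays than between ages. It read 1217, 1922 and 1172 at 6 months, 1893, 1380 and 1250 at 18 months, then 1462, 1264 and 961.6 at 30 months. The high readings at 6 and 18 months each came from a single array, replicate 2 and replicate 1. The log2 change was 0.08 at 18 months (95% interval -0.44 to 0.61) and -0.20 at 30 months (-0.73 to 0.32). Its standard deviation from limma, pooled over the ages and moderated across probe sets, was 0.29 on the log2 scale. The median over all tested probe sets was 0.19.

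*Sod3* encodes the secreted enzyme that binds to the extracellular matrix. Its stronger probe set, Z24721_at, read 1393, 1238 and 1344 at 6 months, 1247, 1486 and 1354 at 18 months, then 1531, 1408 and 1364 at 30 months. The ages overlapped, and the log2 change of 0.11 at 30 months had an interval of -0.14 to 0.37. The weaker X68041cds_s_at read 126.6, 297.8 and 270.3 at 6 months against 233.6 to 298.3 at 30 months, so that its difference of 0.28 (SE 0.27) came from replicate 1 of 6 months. Without that array the difference was -0.05. The fibroblast and matrix markers, of which 7 of 7 were lower at both later ages, 1 past the threshold at 18 months and 3 at 30 months, are given beside this matrix-bound enzyme; their part in its level was not tested.

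Catalase, the peroxisomal enzyme that splits hydrogen peroxide, gave different pictures in its probe sets. Probe set rc_AA926149_g_at read 1106, 1362 and 1206 at 6 months, 562.1, 1001 and 962.9 at 18 months, then 1081, 968.9 and 728.4 at 30 months. Both later ages lay below 6 months without overlap, although the gap between the highest array of 30 months and the lowest of 6 months was narrow. The log2 change was -0.56 at 18 months (SE 0.22, adjusted p = 0.549 by limma) and -0.40 at 30 months (SE 0.22, adjusted p = 0.467 by limma). Without replicate 1 of 18 months, the difference at 18 months was -0.31. Probe set M11670_at read 685.8, 1077 and 1137 at 6 months, 957.6, 1014 and 1032 at 18 months, then 1024, 890.2 and 948.1 at 30 months. There the ages overlapped and the log2 changes were 0.08 (95% interval -0.31 to 0.48) and 0.01 (-0.38 to 0.41), with replicate 1 of 6 months as the lowest array. Without that array they were -0.14 and -0.21, on the same side as the other probe set and still short of the threshold (adjusted p = 0.850 and 0.554 by limma). Without replicate 3 of 6 months they were instead 0.21 and 0.14, on the opposite side. A further catalase probe set of the same accession, rc_AA926149_at, read only 3.7 to 78.1 over the 9 arrays and was not tested.

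The selenoenzyme *Gpx1*, the main cytosolic glutathione peroxidase, was read by 3 probe sets, of which M21210_i_at stayed at 6.0 to 8.7 on all arrays and was not tested. X12367cds_s_at read 2645, 5516 and 4685 at 6 months, 5216, 5316 and 4578 at 18 months, then 5526, 5068 and 4511 at 30 months. Replicate 1 of 6 months was again the low array: the log2 changes of 0.30 at 18 months and 0.29 at 30 months became -0.0164 and -0.0187 without it. X07365_s_at read 2374, 2817 and 2109 at 6 months, 2174, 4152 and 1987 at 18 months, then 3586, 3381 and 2740 at 30 months. Here replicate 2 of 18 months stood above the other arrays of its age, and the oldest arrays overlapped those of 6 months only through the lowest of them (log2 change 0.41, SE 0.26, adjusted p = 0.512 by limma). Red blood cells also carry *Gpx1* and catalase, and 4 erythrocyte markers of 11 had a probe set. They summed to 16353 to 20357 at 6 months, 19861 to 21959 at 18 months and 20192 to 26558 at 30 months. Most of the sum came from the globin genes *Hbb* (12811, 14410 and 16201 in order of age) and *Hbb-b1* (4920, 5689 and 6699). *Alas2* averaged 439, 553 and 467, and *Slc4a1* 346.5, 366 and 311. The part of red blood cells in the levels of *Gpx1* and catalase was not tested.

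*Gpx2*, a glutathione peroxidase best known from the epithelium of the gut, had the most regular difference of the antioxidant enzymes. Its probe set rc_AA800587_at read 98.4, 80.2 and 101.5 at 6 months, 160.1, 187 and 143 at 18 months, then 140.3, 164.7 and 207.7 at 30 months. All 6 arrays of the later ages lay above all 3 arrays of 6 months, and the later ages overlapped each other. The means were 93.4 ± 11.5, 163 ± 22.2 and 171 ± 34.1 (SD, n = 3). On the log2(signal + 32) scale, which understates changes of weak signals, the change was 0.64 at 18 months (SE 0.15, 95% interval 0.30 to 0.98, adjusted p = 0.288 by limma) and 0.69 at 30 months (SE 0.15, 0.35 to 1.02, adjusted p = 0.161 by limma). It was 0.05 between 18 and 30 months (-0.29 to 0.39). By p-value the probe set ranked 35 and 39 of 5244 in the first comparisons, so the absence of a call went with few calls anywhere. Leaving out any array kept the difference at 30 months between 0.56 and 0.80, and over all alternatives its adjusted p was 0.110 to 0.437.  The epithelial markers, 8 of 9 with a probe set and 2 of these tested, summed to 418.3 to 519.8 at 6 months, 312.2 to 414.0 at 18 months and 319.3 to 413.9 at 30 months. The keratin gene *Krt14* (110.0, 66.2 and 93.1 in order of age) and the mucin gene *Muc1* (199, 149.5 and 161) were the tested ones. Among the weak ones, *Krt8* averaged 16.3, 18.2 and 35.3 and *Krt19* 34.7, 47.5 and 23.1. The other weak ones, *Epcam*, *Cftr*, *Krt5* and *Krt18*, each had a lower mean at 30 than at 6 months. At 18 months *Epcam*, *Cftr* and *Krt5* were also below 6 months, and *Krt18* was above. The part of epithelial cells in the level of *Gpx2* was not tested.

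*Gpx2* and *Cyba* were the only genes of the 10 whose means differed by more than 1.7-fold in some pair of ages with the arrays apart; their promoters are printed for that reason. Each runs from 250 bases before to 50 bases after the annotated start, 5′ to 3′ on the gene's strand, from RefSeq with the build GRCr8. Capitals mark the core of the antioxidant response element, TGACNNNGC, to which NRF2 binds, and the GC box, GGGCGG, each searched on both strands. The *Gpx2* stretch is chr6:101229984-101230283, minus strand, and the *Cyba* stretch is chr19:67404165-67404464, minus strand.
Gpx2: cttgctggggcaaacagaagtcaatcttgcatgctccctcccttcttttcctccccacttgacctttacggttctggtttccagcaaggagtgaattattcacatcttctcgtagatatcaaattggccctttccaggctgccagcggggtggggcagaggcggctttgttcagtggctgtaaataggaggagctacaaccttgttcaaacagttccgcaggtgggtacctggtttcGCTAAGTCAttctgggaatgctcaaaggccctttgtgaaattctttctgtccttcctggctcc
Cyba: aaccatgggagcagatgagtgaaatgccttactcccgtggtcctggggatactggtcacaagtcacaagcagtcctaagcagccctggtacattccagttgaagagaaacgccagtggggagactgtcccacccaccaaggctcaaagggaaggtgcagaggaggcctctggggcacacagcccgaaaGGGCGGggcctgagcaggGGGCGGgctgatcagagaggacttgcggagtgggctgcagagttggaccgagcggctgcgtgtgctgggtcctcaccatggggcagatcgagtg
The *Gpx2* window held 1 antioxidant response core, GCTAAGTCA, which reads TGACTTAGC on the other strand, at bases 13 to 5 before the start. The *Cyba* window held 2 GC boxes, at bases 62 to 57 and 44 to 39 before the start, and no letters of the response core. Of the 9 genes matched in the promoter table, with 11 promoters, 3 held the response core: besides *Gpx2* these were *Prdx1* (GCTGAGTCA, bases 135 to 127 before the start) and *Sod2* (GCAGGGTCA, bases 35 to 27 before the start). That is 3 of 11 promoters, and over all 33469 promoters of this length 12.1% held it. The GC box was in 9 of the 11 promoters, which belong to 7 of the 9 genes, and in 33.1% of all promoters. *Sod3* was not matched. A match of letters is a description of the window and not a bound site.

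*Gpx3*, the secreted plasma glutathione peroxidase, was close to level. Probe set rc_AI172411_at read 2909, 3247 and 3311 at 6 months, 3026, 3081 and 2872 at 18 months, then 3960, 3336 and 3041 at 30 months. The ages overlapped, with log2 changes of -0.07 at 18 months (95% interval -0.35 to 0.21) and 0.12 at 30 months (-0.16 to 0.40). In D00680_at the means were 1004 ± 110 at 6 months, 870.7 ± 190 at 18 months and 1001 ± 49.1 at 30 months (SD, n = 3). The lower mean at 18 months rested on replicates 1 and 2 of that age, at 702 and 833.4, beside 1077 in replicate 3. *Gpx4*, which reduces phospholipid hydroperoxides within membranes and guards against ferroptosis, read 5506, 5663 and 4954 at 6 months, 5587, 5209 and 6242 at 18 months, then 6219, 5780 and 5503 at 30 months. Its log2 changes were 0.08 (-0.18 to 0.34) and 0.12 (-0.14 to 0.38), and its moderated standard deviation of 0.14 was among the smaller ones of the 16.

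*Prdx1*, a cytosolic peroxiredoxin that uses thioredoxin to reduce peroxides, had lower signals in the oldest muscle. It read 2199, 2330 and 2052 at 6 months, 2545, 1740 and 1823 at 18 months, then 1865, 1726 and 1654 at 30 months. The arrays of 30 months all lay below those of 6 months, while 18 months spanned both. The mean was 1.25-fold lower at 30 months (log2 change -0.32, SE 0.15, 95% interval -0.66 to 0.02, adjusted p = 0.397 by limma).

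*Cyba* encodes the membrane subunit that stabilises several NADPH oxidases, the source of superoxide in phagocytes and of a smaller flow in muscle fibres and vessels. Its probe set U18729_at read 419.4, 416.8 and 350.8 at 6 months, 80.5, 263.4 and 174.7 at 18 months, then 382.7, 403.3 and 298.5 at 30 months. Each array of 18 months lay below every array of the other ages, whereas 6 and 30 months overlapped. The log2 change was -1.17 at 18 months (SE 0.29, 95% interval -1.82 to -0.51, adjusted p = 0.316 by limma) and 1.04 from 18 to 30 months (SE 0.29, 0.38 to 1.70, adjusted p = 0.999 by limma). These comparisons share the arrays of 18 months. Set against the mean of the other ages, 18 months was at -1.10 (SE 0.25, adjusted p = 0.849 by limma). In that comparison 3.99% of all probe sets had an unadjusted p under 0.05. With an adjusted p of this size, its rank by p among the 5244, the ninth, does not set the gene apart. From 6 to 30 months the change was -0.13 (-0.78 to 0.53). The 3 arrays of 18 months differed widely among themselves, and replicate 1 was the lowest. Without it the change at 18 months was -0.79 and the return 0.66. Since the arrays of 18 months lay apart from all others, leaving out an array could not reverse either direction. The moderated standard deviation from limma, 0.36 on the log2 scale with the ages pooled, was above that of 92.4% of tested probe sets.

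**Figure D2:**
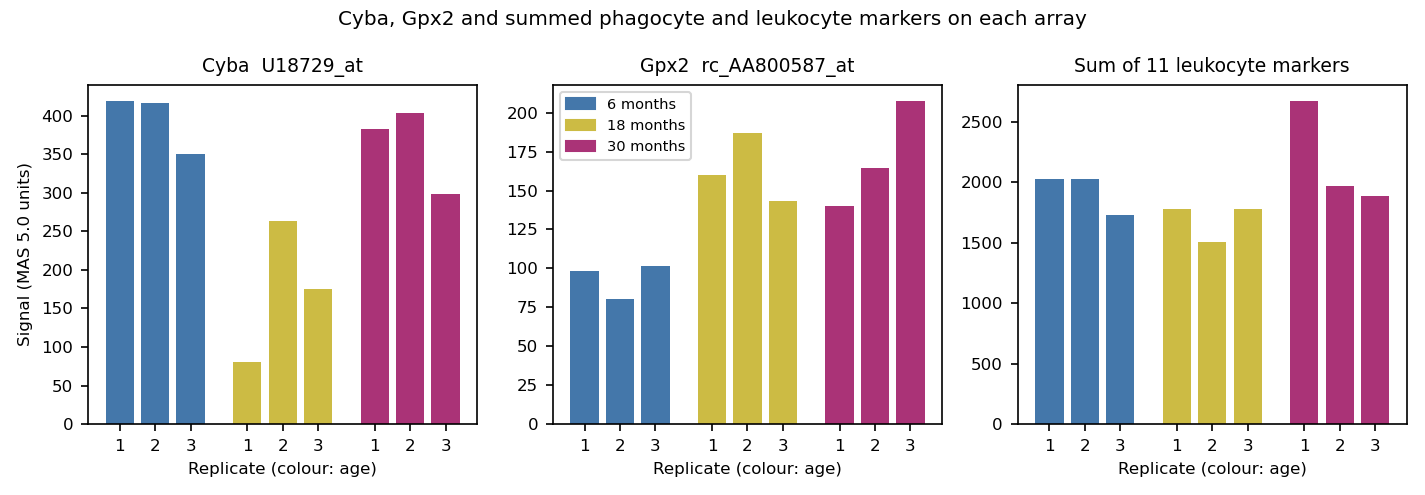
Signals (MAS 5.0 units, bars from 0) of *Cyba*, of *Gpx2* and of 11 summed phagocyte and leukocyte markers on each of the 9 arrays, numbered by replicate and coloured by age. *Cyba* runs from 80.5 to 263.4 on the arrays of 18 months and from 298.5 to 419.4 on the others, and *Gpx2* from 80.2 to 101.5 at 6 months and from 140.3 to 207.7 later.

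Since *Cyba* is abundant in phagocytes, the phagocyte and leukocyte markers are given beside it. Of 16 markers 11 had a probe set and 5 were tested (*Cd14*, *Ptprc*, *Lyz2*, *Lgals3* and *Cd74*), of which 0 passed in any comparison. The 11 markers with a probe set summed to 1733 to 2030 at 6 months, 1509 to 1782 at 18 months and 1888 to 2675 at 30 months. By this sum 18 months lay below 30 months without overlap and overlapped with 6 months. Within 18 months the order was not that of *Cyba*: replicate 2 had the highest *Cyba* signal, 263.4, and the lowest marker sum, 1509, while replicate 1 with the lowest *Cyba* signal, 80.5, had a sum of 1779. Of the 5 tested markers 4 had a lower mean at 18 than at 6 months. As with *Cyba*, the lowest mean was that of 18 months for *Cd74*, the invariant chain of antigen presentation (321, 257 and 494 in order of age), for the lysozyme gene *Lyz2* (563, 503 and 736) and for the galectin gene *Lgals3* (453, 363 and 417). *Cd14* averaged 292, 252 and 184, and *Ptprc*, the leukocyte antigen CD45, 64.2, 88.7 and 86.0. *Itgam*, a defining marker of myeloid cells, averaged 9.7, 3.23 and 3.0 and was too weak to be tested. Its mean at 6 months rested on replicate 2, at 25.3 beside 2.0 and 1.8. The lowest mean was that of 18 months also for the weak *Csf1r* (36.03, 27.23 and 41.9) and *Fcgr2b* (66.9, 61.7 and 66.27). The same held for *S100a8* (24.97, 21.97 and 29.7). The weak *Aif1* (48.1, 48.7 and 51.8) and *S100a9* (49.97, 63.47 and 65.9) were lowest at 6 months. The part of these cells in the level of *Cyba* was not tested. The other oxidase genes with a probe set were *Nox4*, a catalytic subunit, at 7.7, 8.5 and 8.6, which was too weak to be tested, and the GTPase gene *Rac1*. The means of *Rac1* were 632 ± 150, 791 ± 98.5 and 869 ± 73.1 in order of age (SD, n = 3), and the oldest muscle differed from the youngest by a log2 change of 0.46 (SE 0.18, adjusted p = 0.334 by limma), without the low point of *Cyba* at 18 months.

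Across the 16 tested probe sets the median log2 change was 0.06 at 18 months and 0.07 at 30 months against 6 months, with 10 higher and 6 lower each time. Over all 5244 the medians were -0.04 and -0.05. The sign of the antioxidant medians rested on single arrays: without replicate 1 of 6 months they were -0.07 and -0.0084, and without replicate 2 of 18 months the median at 18 months was -0.03. After quantile normalization the antioxidant medians were 0.02 and 0.03, and those of all probe sets -0.0036 and -0.01. From 18 to 30 months the 16 had a median of 0.05 with 12 higher, and all probe sets -0.02. The mean was lowest at 6 months in 8 of the 16, at 18 months in 4 and at 30 months in 4, where all probe sets gave 31.0%, 28.5% and 40.5%. Ages did not overlap in 3 of 16 at 18 against 6 months (13.7% of all probe sets), in 4 of 16 at 30 against 6 months (22.2%) and in 1 of 16 at 30 against 18 months (7.36%). With a ratio of means over 1.7 asked for as well, the size that the authors' own selection required, there were 2, 1 and 1 of the 16, against 1.43%, 2.23% and 0.629% of all probe sets. The 2 were *Gpx2* and *Cyba*, the 1 at 30 against 6 months was *Gpx2*, and the 1 at 30 against 18 months was *Cyba*.

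**Figure D3:**
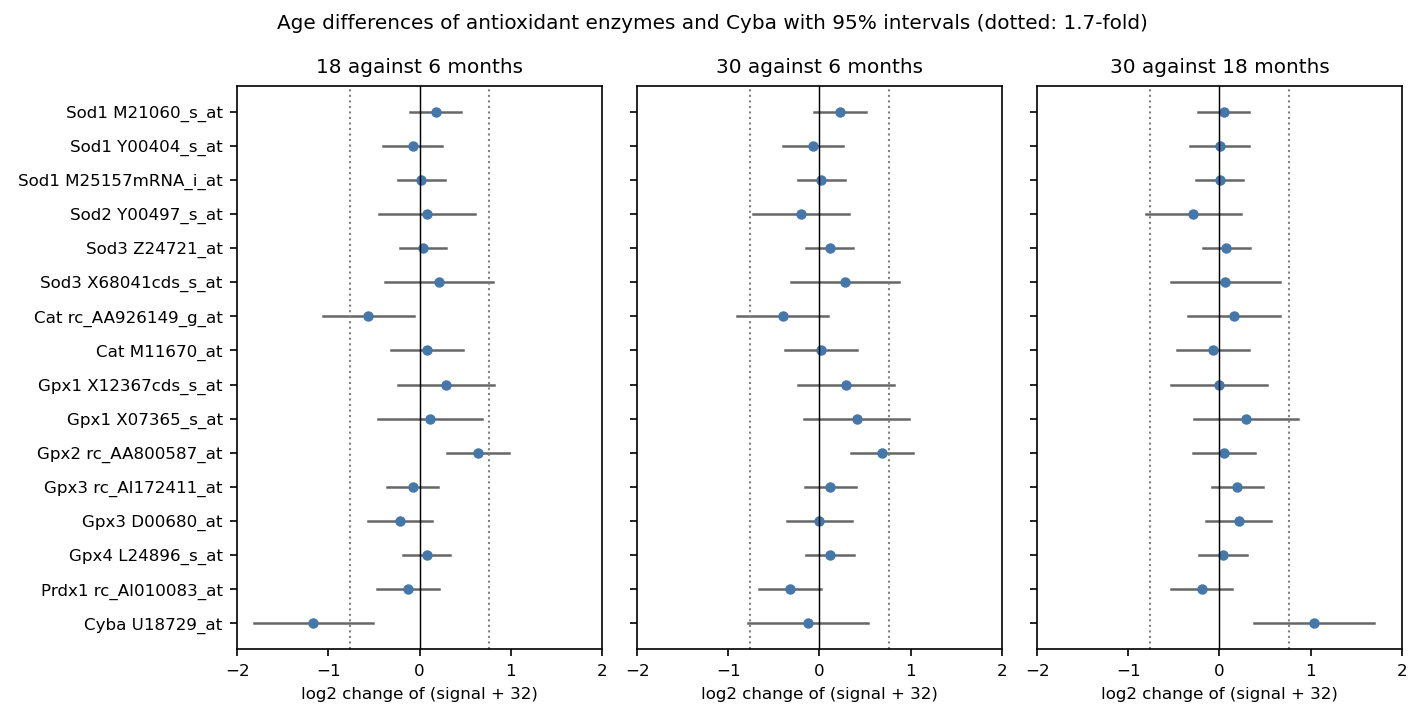
Differences between ages on the log2(signal + 32) scale for the 16 tested probe sets, with 95% intervals from limma and dotted lines at a 1.7-fold change in either direction. At 30 against 6 months 10 of 16 intervals lie within the dotted lines, and those of *Sod1* and *Gpx4* are among the narrow ones.

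The intervals show what size of change these arrays leave room for. At 18 against 6 months 11 of the 16 intervals lay within a 1.7-fold change in either direction, and at 30 against 6 months 10 did, where 81.7% and 78.9% of all probe sets did so. The 10 at 30 months comprised all 3 *Sod1* probe sets, both of *Gpx3*, and those of *Sod2*, *Gpx4* and *Prdx1*, with Z24721_at of *Sod3* and M11670_at of catalase. The exceptions were *Cyba*, *Gpx2*, both tested *Gpx1* probe sets, X68041cds_s_at of *Sod3* and rc_AA926149_g_at of catalase. A missed threshold does not show that the ages were alike in these genes. Replicate 1 of 6 months was the lowest array of its age in 7 of the 16 probe sets, near the 35.8% of all tested probe sets. Replicate 3 of 30 months was lowest in 10 of 16, against 31.1%. The highest array of its age was replicate 2 of 18 months in 10 of 16 (27.1% of all) and replicate 1 of 30 months in 10 of 16 (34.9%).

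Other genes of oxidant defence were taken from 6 lists written from general knowledge, with 98 genes, of which 58 had a probe set and 48 were tested. In each comparison 0 of the 48 passed the threshold. At an unadjusted p under 0.05 there were 2 higher and 3 lower at 18 against 6 months, 5 higher and 3 lower at 30 against 6 months and 0 at 30 against 18 months. Over all probe sets these shares were 8.62%, 12.9% and 3.20%, near those of the 48 genes in the first comparisons. The median log2 change at 30 months was 0.01, with 25 higher and 23 lower. Named here are the 2 genes of each list with the highest signal. Of the peroxiredoxin and thioredoxin list, *Txnip*, a thioredoxin inhibitor, and *Selenow*, a selenoprotein abundant in muscle, each had a log2 change of -0.02 at 30 months. In the glutathione list the microsomal transferase *Mgst3* averaged 6844 ± 580 at 6 months, 8174 ± 208 at 18 months and 7538 ± 389 at 30 months (SD, n = 3), and the transferase *Gstm2* 2459 ± 266, 2973 ± 351 and 3429 ± 426. *Gstm2* thus stood 0.47 higher at 30 months (SE 0.14, adjusted p = 0.283 by limma), without overlap of those ages. Its probes may also read related transferases of the mu class.

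Genes for NADPH, which keeps glutathione and thioredoxin reduced, were *Idh2* (log2 change 0.20 at 30 months) and *Nnt* (0.14), both mitochondrial. Of the NRF2 target and metal-binding list, the redox-sensitive chaperone gene *Park7* had 0.22 and the quinone reductase gene *Nqo1*, a widely used NRF2 target, -0.16. Among other oxidant sources and their modulators, the uncoupling protein genes *Ucp2* and *Ucp3* had 0.39 (SE 0.13, adjusted p = 0.314 by limma) and 0.47 (SE 0.24, adjusted p = 0.432 by limma). *Ucp2* read 1515, 1655 and 1552 at 6 months and 2362, 1922 and 1939 at 30 months, so that these ages did not overlap. The same held for 22.2% of all probe sets. Lower at 30 months without overlap, named after their values were seen, were *Nos2* (-0.50, adjusted p = 0.197 by limma), *Selenop* (-0.42) and *Nfe2l2* (-0.32), the gene of NRF2. Besides *Ucp2* and *Gstm2*, those higher without overlap were *Rac1*, *Txnrd1*, *Gstt2*, *Gstk1* and *Mt3*. *Nqo1* read 735.5, 674 and 706.2 at 6 months and 701.9, 608.2 and 577.4 at 30 months, with overlap.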

How the data were processed

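Posterior cricoarytenoid muscle RNA of 4 pooled rats per array was hybridised by the authors to Affymetrix Rat Genome U34 arrays, 3 per age. The deposited values are signal intensity from MAS 5.0 on a linear scale, made by the authors with Affymetrix Microarray Suite 5.0, per the labels. The nearly equal trimmed means of the arrays show that they had been scaled, a step read from the values alone. The sample labels name cyanine dyes, whereas the series text describes biotin labelling of Affymetrix chips; the values, 1 for each probe set and array, were taken as one-colour signals. The authors' absent, present and difference calls were not used.

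Of 8799 probe sets, 59 controls were left out. Signals were analysed as log2(signal + 32), and probe sets in the upper 60% by mean (5244 of 8740, above 6.60) were tested; 2 of the 18 described here were not. Names came from the platform annotation, which gave 1 symbol for 7006 probe sets, more than 1 for 308 and no symbol for 1426; all 18 gene IDs were found in GRCr8 with the same symbol. A probe set that joins *Gpx4* with other genes (10 symbols) was left out. The main analysis used limma 3.58.1 (R 4.3.3) on the 9 arrays together, with a separate mean for each age (6 residual and 3.69 prior degrees of freedom). Two-sided p-values were adjusted over all tested probe sets (Benjamini-Hochberg). They judge the age differences against the spread between pools, moderated across probe sets. Precision is limited by having 3 arrays for an age. Intervals are 95% from the same fit. In lists, the probe set with the highest mean represents a gene. From each pathway list, the 2 genes of highest signal and any gene past the threshold were named; marker lists had no such rule. Alternatives were a smaller pseudocount (8) and a larger one, filters, quantile normalization, a trended prior, a replicate block, a fold rule and leaving out each array.

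The genes and lists were chosen with earlier results of these data known.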

Additional observations from a re-analysis of the deposited data

How the results depend on the processing

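None of the tested probe sets of the 10 genes passed an adjusted p of 0.05 in any of the 16 alternative limma fits, in any of the 5 comparisons (lowest adjusted p 0.0955, for any difference among ages without replicate 2 of 18 months). Under the fold rule the count of 0 became 2 at 18 against 6 months, 1 at 30 against 6 and 1 at 30 against 18. Of 1020 recomputed differences, 14 moved by more than the moderated standard deviation of the main fit.

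Counts over all probe sets were less stable. At 18 against 6 months 4 passed, 8 with the larger pseudocount and 8 with a trended prior, 75 under the fold rule, and 0 to 5 when an array was left out (0 without replicate 2 of 6 months or replicate 3 of 18 months). At 30 against 6 months 17 passed, 11 with the replicate block, 117 under the fold rule and 0 to 20 when an array was left out (0 without replicate 2 of 6 months, or 2 or 3 of 30 months). At 30 against 18 months 1 passed, 0 with the larger pseudocount, the upper 40%, the trended prior or the replicate block (161, 92, 150 and 220 at an unadjusted p under 0.05 in limma), 4 without filtering, 33 under the fold rule and 0 to 2 when an array was left out. For 18 months against the mean of the other ages 0 passed in limma (209 at an unadjusted p under 0.05), and 0 to 2 when an array was left out. For any difference 14 passed, 6 with a pseudocount of 8, 6 without filtering, 9 after quantile normalization, 4 with the replicate block and 0 to 11 when an array was left out (0 without replicate 2 of 6 or of 30 months). The causes were not tested.

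The main fit did not pair arrays by replicate number, and a replicate block was an alternative fit. Whether same-numbered arrays shared a batch was not tested. The deviations of same-numbered arrays correlated at -0.02 to 0.26, over 0.1 in 4 of 9 pairs. Those of differently numbered arrays correlated at -0.21 to 0.15 (18 pairs), and 8 of 9 arrays correlated best with their own number. These correlations are across probe sets. Weak signal limits *Gpx2*, which was not tested with the upper 40%. Its change at 30 months was 0.43 with the larger pseudocount, and 0.43 to 0.81 over the alternative fits that kept all arrays.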
